A study of Mus musculus with 16 samples.

Results

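The transcriptome of wild-type mouse lung after 3 months of cigarette smoke was compared with that of wild-type lung kept in room air. These were 8 of the 16 whole-lung samples of a study of Mmp28, which encodes a secreted matrix metalloproteinase, and the title of the series ties that gene to emphysema, the loss of alveolar walls. All mice were on the C57BL/6 background, age- and sex-matched per the labels, and 7 to 9 weeks old when exposure began. The groups were wild-type mice given the smoke of 3R4F research cigarettes for 3 hours a day, 5 days a week, at 250 tpm/m3 (n = 5), and wild-type mice that breathed room air in a comparable chamber (n = 3). Mmp28-/- mice had the same exposures (n = 5 in smoke and n = 3 in air) and are used here only where a wild-type response is set beside theirs. RNA from whole lung was read on Illumina MouseRef-8 v2 arrays, and 15180 of 25697 probes were tested, those detected (detection p under 0.05) on 3 or more of the 8 wild-type arrays. They covered 10323 named genes, each represented by its brightest tested probe. The labels do not state that each sample came from a separate animal, so a p-value may reflect technical spread alone.

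Smoke reaching the alveolus is met first by alveolar macrophages, which engulf particles and lipid, store them in lysosomes and release chemokines and proteases. Proteases that cut elastin and collagen, above all macrophage metalloelastase (Mmp12), are held in check by tissue inhibitors of metalloproteinases, and an imbalance between them is the classical account of emphysema. Epithelial cells oxidise and conjugate the chemicals in smoke through enzymes controlled by the aryl hydrocarbon receptor (AHR) and by NRF2, a transcription factor activated by electrophiles. In whole-lung RNA, fewer cells of a type and less RNA per cell cannot be told apart.

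Levels are log2 of background-corrected, quantile-normalised intensity, and differences are smoke minus air on that scale. A gene was called when its adjusted p (limma, Benjamini-Hochberg over the 15180 probes) was under 0.05. Of the probes, 4463 were called (29.4%), of which 2337 rose and 2126 fell. Of the 10323 genes, 3148 were called (30.5%), with 1728 rising (16.7%) and 1420 falling (13.8%). The median size of a called difference was 0.64, and the median over all genes was -0.01. At least 2-fold rises numbered 364 and at least 2-fold falls 131, and 4-fold was reached by 18 rising and 15 falling genes. Values of smoke and air arrays did not overlap for 3134 genes (30.4%), called or not, and for 1446 of the called rises and 1121 of the called falls. With arrays scaled to 1 median in place of quantile normalisation, 64.6% of called probes rose, against 52.4% as reported.

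One array stood apart, and calls that were lost or called differences that moved over 1.5 times without it are given both ways. Air replicate 1 had 13971 detected probes, the fewest of the 8, and 249 probes lay at least 2-fold above and 130 at least 2-fold below every other wild-type array, against at most 12 and 7 for any other. Acute-phase Saa3 was at 12.21 on it and at 5.45 and 5.54 on air replicates 2 and 3. Without it 4234 probes were called, 3347 of them shared with the full set. Mean background intensity was also higher in smoke, at 131 ± 2.51, than in air, at 122 ± 3.15 (SD, n = 5 and n = 3), with a 2-sided exact permutation p of 0.0179, the smallest its 56 splits allow, and 0.0357 adjusted over 2 tests. The count of detected probes was 14643 ± 109 in smoke and 14566 ± 520 in air (exact permutation p = 0.857). The part of array background in the results was examined by adding it to the fit, which called 2508 probes. With it the count rising became 5 for both macrophage lists described below, 9 for lysosomal, 4 for ciliated and 0 for platelet genes, and 28 for matrix genes. At detection p under 0.01, all 8 arrays detected Xist, and at most 1 of 3 Y-linked probes was detected on any. By detection no difference of sex between the groups was seen, although the Xist level was lower in smoke (7.30 to 8.87, against 9.37 to 10.39 in air).

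Mmp28 itself was read by 1 tested probe. It stood at 5.67, 6.06, 6.49, 6.04 and 5.71 on the smoke arrays, against 5.71, 6.04 and 5.72 on the air arrays, and was not called (difference 0.17, adjusted p = 0.56). The arrays labelled Mmp28-/- were at 5.39 to 6.20 in smoke and 5.43 to 6.05 in air. Their range overlapped that of wild type, with 4 of the 8 below every wild-type array, so this probe did not separate the genotypes fully. Where it lies relative to the deletion is not given in the sources used here, so it does not check the labels, and those groups are called by their labels.

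Ear6 and Cxcr1 had the largest rises. Ear6, which encodes a ribonuclease of the eosinophil-associated family, was at 11.25, 9.13, 11.01, 10.39 and 9.77 in smoke, against 5.48, 6.03 and 6.04 in air. Its lowest smoke array was over 3 log2 units above its highest air array, and the difference of 4.46 ± 0.42 (SE; 22.0-fold, adjusted p = 5.93e-06) was the largest among called genes, although this probe may also read close relatives of Ear6. Cxcr1, a chemokine receptor gene, was at 12.42, 11.49, 12.11, 11.81 and 11.39 in smoke, against 7.05, 8.17 and 8.07 in air. The groups were well apart, by 4.08 ± 0.32 (16.9-fold, adjusted p = 1.61e-06). Ch25h, which makes 25-hydroxycholesterol in activated macrophages, was at 12.42, 11.16, 11.89, 11.89 and 12.04 in smoke, against 8.78, 9.38 and 9.17 in air, and rose by 2.77 (6.83-fold). For each of these genes the smoke arrays lay above all air arrays.

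**Figure D1:**
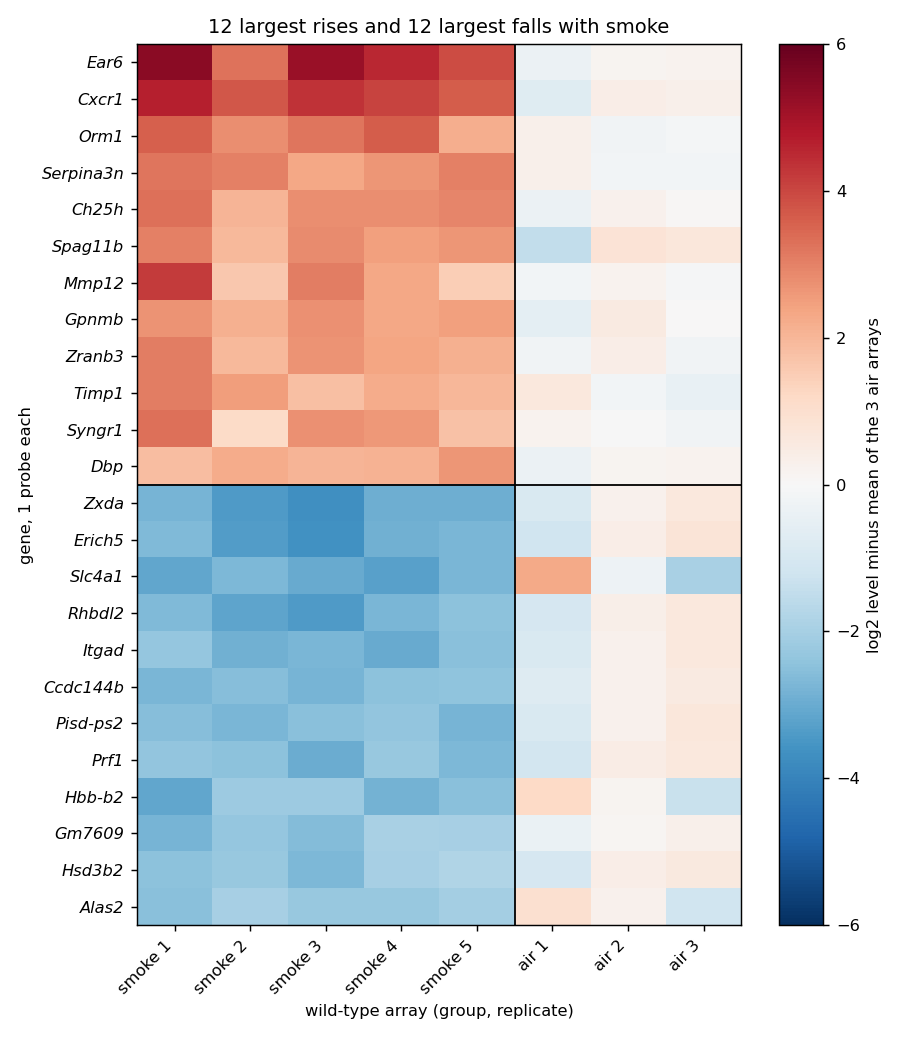
Log2 level minus the mean of the 3 air arrays (colour) for the 12 genes with the largest rises (top) and the 12 with the largest falls (bottom) among called genes whose groups did not overlap. Columns are the 5 smoke and the 3 air arrays; Ear6 reached 11.25 on smoke replicate 1, and Slc4a1 reached 12.09 on air replicate 1.

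Some markers of activated, lipid-laden macrophages rose with smoke. Of 20 tested genes of macrophage activation and lipid loading, 8 rose, 1 fell and 11 were not called, with a median of 0.37 against -0.01 over all genes (40.0% rising, against 16.7% of all genes). Gpnmb, a glycoprotein of lipid-laden macrophages, was at 13.54, 12.99, 13.62, 13.17 and 13.30 in smoke, against 10.29, 11.39 and 10.88 in air. It rose 5.53-fold (difference 2.47 ± 0.22, adjusted p = 5.28e-06), and all 4 of its tested probes were called. Trem2, a lipid-sensing receptor, was at 10.84, 10.05, 10.62, 9.99 and 10.49 in smoke, against 10.15, 8.59 and 8.40 in air, so air replicate 1 overlapped the smoke arrays (difference 1.35, adjusted p = 0.00328). Il1a, an alarm cytokine gene, rose by 1.54 and Lcn2, an iron-sequestering protein also made by neutrophils, by 0.83. The Lcn2 call was lost without air replicate 2 (0.69, adjusted p = 0.075) or 3 (0.67, adjusted p = 0.081). Cybb, the oxidase subunit of the respiratory burst, was the member that fell (-0.97).

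Among genes of resident alveolar macrophages, 10 of 25 tested rose (40.0%, against 16.7% of all genes), with a median of 0.31. The 3 that fell are a share near the 13.8% of all genes. Ctsk, a lysosomal cysteine protease that degrades collagen and elastin, was at 13.50, 13.09, 13.75, 13.33 and 13.20 in smoke, against 10.76, 11.85 and 11.20 in air. The groups did not overlap, and the difference was 2.10 ± 0.26 (4.30-fold, adjusted p = 3.3e-05). Cd63, a tetraspanin of lysosomes, rose by 1.95 on its brightest probe and was called on all 3. Fabp5, a fatty-acid carrier, rose by 1.64 and Marco, a scavenger receptor for inhaled particles, by 1.59. Car4, a carbonic anhydrase found in alveolar macrophages and in lung capillaries, rose by 1.74. Csf2rb, a receptor chain for GM-CSF, fell by 0.90 (2 of its 3 probes called), and the macrophage surface markers Adgre1 (-0.72) and Cd14 (-0.55) were also called lower. The last 2 lost their calls without air replicate 1, where the differences were -0.40 and -0.25 (adjusted p = 0.051 and 0.23), and Cd14 also without smoke replicate 2, 4 or 5 (adjusted p up to 0.079). Chemokine and macrophage genes are also expressed by other cells of the lung, and the cell of origin was not tested.

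Lysosomal genes rose more often than they fell, with 14 rising and 3 falling among 46 tested and a median of 0.21 (30.4% rising, against 16.7% of all genes). Without air replicate 1 the counts were 18 and 0, and without air replicate 3 the count rising was 9. Besides Ctsk and Cd63, the members with the largest called differences were Mcoln1, a calcium channel of the lysosome membrane (0.89), Atp6v1c1, a subunit of the proton pump that acidifies it (0.89), Ctsd, its main aspartic protease (0.86), and Slc11a1, a metal transporter of phagosomes, which fell (-0.75). The Slc11a1 call was lost without air replicate 1 (-0.45, adjusted p = 0.12), and 1 of its 4 tested probes was called. Mcoln1 was at 7.48, 7.71, 7.74, 7.69 and 7.72 in smoke, against 6.58, 6.81 and 6.95 in air, with no overlap. Ctsd was at 8.19, 7.94, 8.20, 7.68 and 7.89 in smoke, against 6.95, 7.41 and 7.00 in air, again with no overlap.

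Promoters in the RefSeq table, which run from 250 bases before to 50 after a gene start, were searched for TCACGTGA, the palindromic core of the CLEAR element read by the lysosomal regulator TFEB, which contains the E-box CACGTG. It was held by 6 of 40 tested lysosomal genes with a promoter there, against 1.12% of all genes in the table and 0.974% of its 32851 promoters. Of 15 called members with a promoter there, 3 held it, Mcoln1, Ctsd and the proton pump subunit gene Atp6v0d1, which rose by 0.37. Of these, Mcoln1 and Ctsd had the larger rises, and their 250 bases before the gene start are shown (RefSeq, GRCm38.p6, 5′ to 3′ on the gene's strand), with the element in capitals. A match describes the sequence only.
Mcoln1, chr8:3500269-3500518, plus strand: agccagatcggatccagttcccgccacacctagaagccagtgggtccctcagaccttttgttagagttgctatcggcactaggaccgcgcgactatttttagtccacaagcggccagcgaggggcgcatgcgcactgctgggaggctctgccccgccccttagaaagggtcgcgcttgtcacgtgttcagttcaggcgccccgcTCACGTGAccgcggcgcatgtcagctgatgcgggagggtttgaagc
Ctsd, chr7:142387828-142388077, minus strand: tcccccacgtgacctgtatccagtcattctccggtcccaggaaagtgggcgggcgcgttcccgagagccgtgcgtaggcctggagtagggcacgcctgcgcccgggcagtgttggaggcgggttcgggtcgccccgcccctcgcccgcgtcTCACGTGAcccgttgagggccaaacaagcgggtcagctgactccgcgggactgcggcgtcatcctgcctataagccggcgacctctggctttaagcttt

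Metalloproteinases and their inhibitors rose more often than they fell. Of 26 tested, 11 rose (42.3%, against 16.7% of all genes) and 2 fell (7.7%, against 13.8%), with a median of 0.51. Mmp12, the macrophage elastase, was at 11.50, 8.93, 10.35, 9.61 and 8.80 in smoke, against 7.15, 7.53 and 7.23 in air. All smoke arrays exceeded all air arrays, but they spread widely among themselves, with replicate 1 the highest, and the means were 9.84 ± 1.12 and 7.30 ± 0.20 (SD, n = 5 and n = 3; difference 2.54 ± 0.51 SE, adjusted p = 0.00148). The inhibitor Timp1 was at 9.57, 8.99, 8.31, 8.73 and 8.51 in smoke, against 7.13, 6.34 and 6.03 in air. It rose 5.00-fold (difference 2.32, adjusted p = 4.25e-05) on the brighter of 2 called probes. Gelatinase Mmp2 rose by 1.69, Mmp23, a membrane-anchored protease, by 1.37, stromelysin Mmp3 by 1.09 and the inhibitor Timp2 by 1.12. The 2 members that fell were the membrane sheddases Adam19 (-0.74) and Adam8 (-0.60), and the Adam8 call was lost without air replicate 1 (-0.52, adjusted p = 0.051) or 3 (-0.51, adjusted p = 0.065). Gelatinase Mmp9, a product of neutrophils and macrophages, was at 9.95, 9.96, 10.33, 10.29 and 9.26 in smoke, against 10.44, 9.85 and 10.13 in air. Those values overlapped and the gene was not called (-0.18, adjusted p = 0.64).

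**Figure D2:**
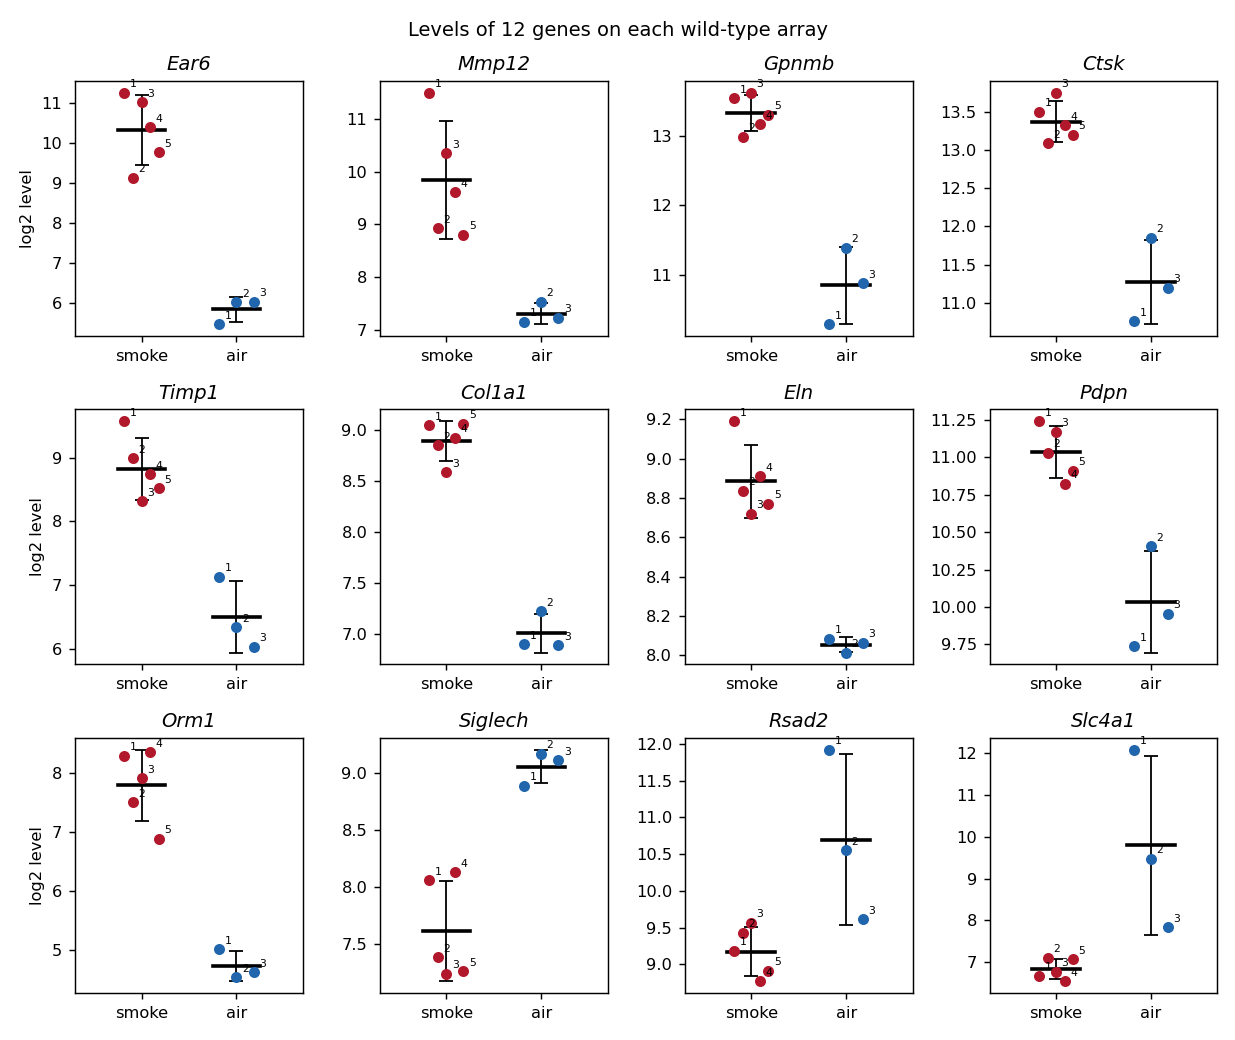
Log2 level (y axis, its own range in each panel) of 12 genes on each wild-type array, smoke left and air right, with replicate numbers, the mean (bar) and SD (whiskers). Mmp12 ran from 8.80 to 11.50 on the smoke arrays, whereas Col1a1 ran from 8.59 to 9.07.

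Matrix genes had the highest share rising of all lists with at least 10 tested members. The lists were chosen with earlier results of these data known, so this ranking only describes them. Of 35 tested genes of elastic fibres and collagens, 30 rose (85.7%, against 16.7% of all genes) and 0 fell, with a median of 1.03. Leaving out any 1 array gave 27 to 29 rising. Col1a1, a chain of fibrillar collagen I, was at 9.05, 8.85, 8.59, 8.93 and 9.07 in smoke, against 6.90, 7.23 and 6.89 in air. The smoke arrays lay close together and far above air (means 8.90 ± 0.19 and 7.00 ± 0.19, difference 1.89 ± 0.14 SE, 3.72-fold, adjusted p = 1.5e-06). The microfibril genes Mfap5 (1.83) and Mfap4 (1.69), collagen V chain Col5a1 (1.73), the proteoglycan gene Lum (1.66) and collagen I chain Col1a2 (1.57) followed. Elastin and its cross-linking enzyme were singled out after their values were seen. Eln was at 9.19, 8.84, 8.72, 8.91 and 8.77 in smoke, against 8.08, 8.01 and 8.06 in air, and rose 1.78-fold (adjusted p = 0.000588). Loxl1, the oxidase that cross-links elastin, was at 11.38, 11.40, 11.11, 11.20 and 11.17 in smoke, against 9.72, 10.05 and 9.93 in air, and rose 2.55-fold. Neither gene's groups overlapped. The 5 tested members that were not called were Efemp1, Emilin1, Loxl2, Col4a3 and Tnc, at 0.07 to 0.43. On smoke replicate 5, 20 of the 30 rising members had their highest level.

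Markers of the cells that make this matrix, and of the alveolar wall, were higher too. Of 18 tested mesenchymal and smooth muscle markers 15 rose (83.3%, against 16.7% of all genes) and 0 fell (median 1.21). Leaving out any 1 array gave 14 or 15 rising. Acta2, smooth muscle actin, was at 12.19, 12.56, 12.27, 12.20 and 12.51 in smoke, against 10.46, 10.80 and 11.30 in air, and was called on all 4 of its probes (difference 1.49, adjusted p = 1.16e-05). Des, the muscle intermediate filament, rose by 1.51, secreted peroxidase Gpx3 by 1.47, Actg2, another smooth muscle actin, by 1.43, the fibroblast transcription factor Tcf21 by 1.41 and the growth factor Wnt2 by 1.37. For each of the 6 the groups did not overlap.

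Of 29 tested endothelial markers, 22 rose (75.9%, against 16.7% of all genes) and 0 fell, with a median of 0.75. The count rising was 17 to 26 when any 1 array was left out. Besides Car4, the largest called rises were in Emcn, an endothelial sialomucin (1.19), Acvrl1, a receptor for bone morphogenetic proteins (1.08), the vascular transcription factor Sox18 (1.07), Plvap, which forms the diaphragms of fenestrae (1.05), and Gpihbp1, which carries lipoprotein lipase on capillaries (0.95). Emcn was at 10.83, 11.40, 11.54, 11.25 and 11.37 in smoke, against 9.75, 10.15 and 10.37 in air. Smoke replicate 1 was the lowest smoke array for each of these 5 genes, and it was the highest for 6 of the 10 rising alveolar macrophage genes.

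Alveolar epithelium differed by cell type. Of 13 tested markers of alveolar type 1 cells, the flat cells of gas exchange, 9 rose (69.2%, against 16.7% of all genes) and 0 fell. Their median was 0.81, and 6 to 11 rose when any 1 array was left out. Pdpn, a surface glycoprotein of these cells, was at 11.24, 11.03, 11.17, 10.82 and 10.91 in smoke, against 9.74, 10.41 and 9.96 in air, and rose by 1.00 with no overlap. Igfbp2, a binding protein of insulin-like growth factors, rose by 1.40, or by 0.89 without air replicate 3 (adjusted p = 0.021). The membrane proteins Emp2 and Clic5 rose by 1.05 and 0.96, Sec14l3, a lipid-binding protein, by 1.10 and the receptor Ager by 0.94. The Ager call was lost without air replicate 1 (0.79, adjusted p = 0.080) or 3 (0.66, adjusted p = 0.13). Of 20 tested markers of type 2 cells, which secrete surfactant, 0 rose and 2 fell, with a median of -0.07. Both are proteases that process surfactant proteins, Ctsh (-0.45) and Napsa (-0.39, with 1 of its 3 tested probes called). The Ctsh call was lost without air replicate 1 (-0.30, adjusted p = 0.061), the Napsa call without smoke replicate 3 or 5 or air replicate 2 or 3 (adjusted p 0.063 to 0.17), while 4 members fell without air replicate 1 and 1 without smoke replicate 3 or 5 or air replicate 2 or 3. Sftpc was at 13.74, 13.97, 14.00, 14.11 and 14.09 in smoke, against 13.24, 14.25 and 14.15 in air, and Sftpb was called on neither of its 2 probes. These surfactant genes overlapped between the groups.

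In airway cells the number of calls depended on single arrays. Of 17 tested ciliated cell markers 12 rose (70.6%, against 16.7% of all genes) and 0 fell (median 0.85). Only 1 rose without air replicate 1 and 7 without smoke replicate 4, and all 12 had their highest smoke level on smoke replicate 4. The mean level of the ciliated list was 8.31 to 8.68 on smoke arrays, against 6.97, 8.21 and 8.02 on air replicates 1, 2 and 3. Dynlrb2, a dynein light chain, was at 11.10, 11.06, 11.05, 11.58 and 11.49 in smoke, against 9.09, 10.70 and 10.58 in air. It was called at 1.13 (adjusted p = 0.0125) and was at 0.61 without air replicate 1 (adjusted p = 0.079). Sntn, a protein of the ciliary tip, was called at 1.35, or 0.84 without air replicate 1 (adjusted p = 0.049), although its second probe was not (0.41, adjusted p = 0.18). Of 17 club and goblet cell markers 2 rose (11.8%, against 16.7% of all genes) and 1 fell, with a median of -0.52. Without air replicate 1, 0 rose and 5 fell, and 0 fell without smoke replicate 2, 3 or 5. The secretory gene Scgb1a1 was at 14.73 to 14.86 in smoke, against 14.52 to 14.83 in air, and was not called (0.11, adjusted p = 0.39). At so high a level a difference may be compressed, so these values do not show that the gene was unchanged. Bpifa1, a secreted airway defence protein, was at 9.02, 6.51, 8.10, 8.98 and 8.01 in smoke, against 8.33, 11.23 and 11.01 in air, so the groups overlapped through air replicate 1. It was called at -2.06 (adjusted p = 0.0474) and at -2.98 without air replicate 1 (adjusted p = 0.0069), but not without smoke replicate 2, 3 or 5 or air replicate 2 or 3 (adjusted p 0.072 to 0.19). The 2 that rose, Retnla (1.02) and Aldh1a1 (0.84), both lost their calls without air replicate 1 (0.65 and 0.46, adjusted p = 0.084 and 0.11).

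**Figure D3:**
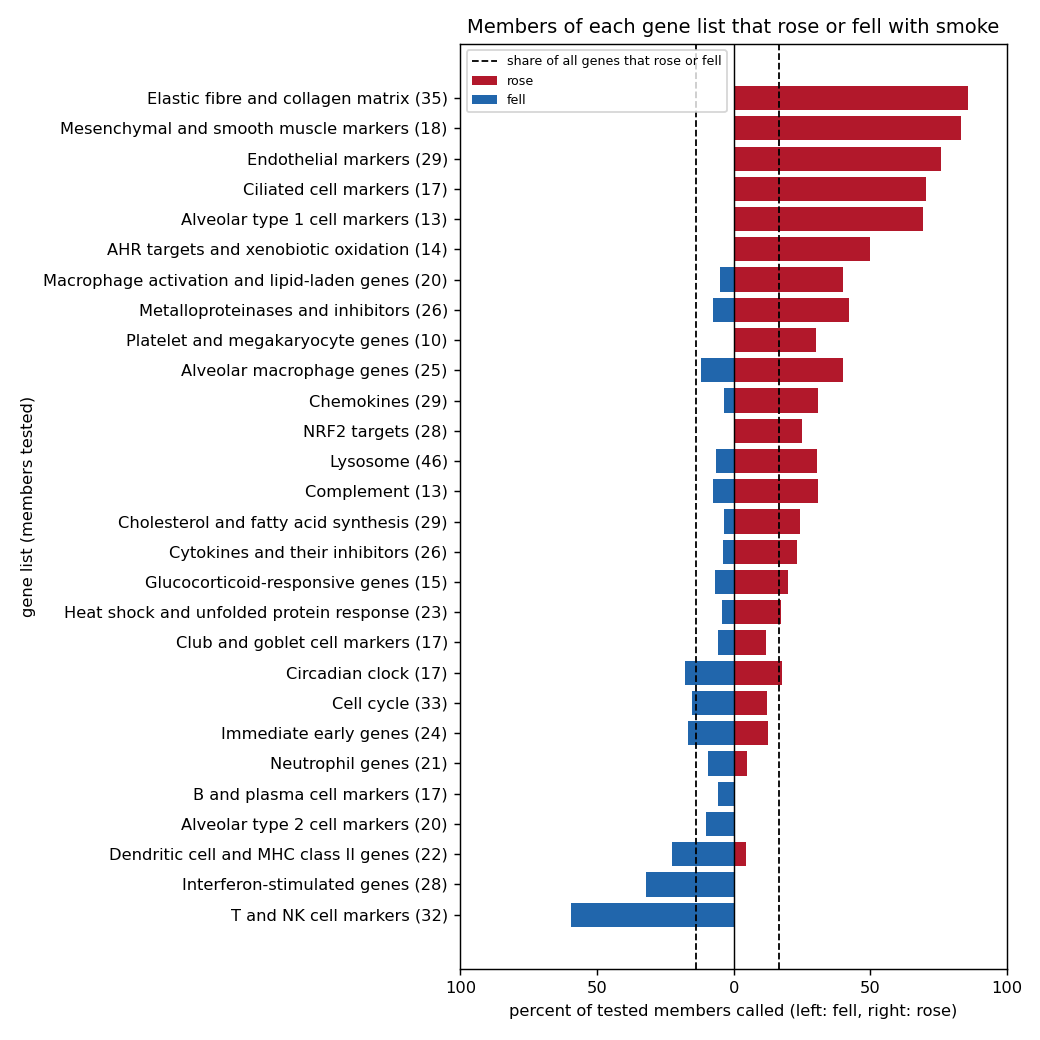
Percent of the tested members of each gene list that rose (right) or fell (left) with smoke, for lists with at least 10 tested members, given in parentheses. Dashed lines mark the shares of all genes, 16.7% rising and 13.8% falling; 30 of 35 matrix genes rose and 19 of 32 T and NK cell genes fell.

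Most NRF2 targets were not called, and those that were called rose. Of 28 tested 7 rose, 21 were not called and 0 fell (median 0.22), against 16.7% of all genes rising and 13.8% falling. The mean level of the list was 9.43 to 9.58 on smoke arrays, against 9.21 to 9.33 on air arrays, without overlap. Of 14 genes of AHR targets and xenobiotic oxidation 7 rose and 0 fell (median 0.55), with Nqo1 in both lists. Without air replicate 3, 2 NRF2 targets fell. Gstm1, a glutathione transferase, was at 12.32, 12.16, 12.24, 12.19 and 12.38 in smoke, against 10.18, 10.97 and 10.98 in air. The groups did not overlap (difference 1.55 ± 0.15, 2.92-fold, adjusted p = 6.91e-06), but its second probe was not called (0.24), and probes of this family may read near-identical members. Akr1b8, an aldo-keto reductase, rose by 1.38, Gstm2 by 1.17 on 3 called probes, the epoxide hydrolase Ephx1 by 0.81, Gsta3 by 0.78 and sulfiredoxin Srxn1 by 0.67. Without air replicate 1 Ephx1 rose by 0.50 (adjusted p = 0.012) and Gsta3 lost its call (0.40, adjusted p = 0.13). The second Gsta3 probe was not called (0.33, adjusted p = 0.27), nor was another Srxn1 probe (0.20, adjusted p = 0.47). Nqo1, a quinone reductase and the customary marker of NRF2, was called at 0.49 but lost the call without smoke replicate 2, 3, 4 or 5 or air replicate 2 or 3 (adjusted p 0.066 to 0.24). Hmox1, haem oxygenase 1, was at 8.49, 8.08, 8.30, 8.29 and 8.82 in smoke, against 10.96, 8.56 and 8.30 in air, and was not called (adjusted p = 0.11). Its difference of -0.87 became -0.03 without air replicate 1, and it was called lower without air replicate 2 (-1.23, adjusted p = 0.044) or 3 (-1.36, adjusted p = 0.019).

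Among the oxidation genes the cytochromes P450 Cyp2b10 (1.28), Cyp4b1 (1.20), Cyp2s1 (1.08) and Cyp1b1 (1.00) and the flavin monooxygenase Fmo1 (1.05) rose. Without air replicate 1 Cyp2s1 rose by 0.70 (adjusted p = 0.032). Cyp1b1, a direct AHR target, was at 6.61, 6.10, 6.07, 6.16 and 6.20 in smoke, against 4.70, 5.18 and 5.81 in air, without overlap (adjusted p = 0.00681). The best known AHR target, Cyp1a1, was too dim to test. Of 12 tested members of this list with a promoter in the table, 5 held GCGTG, the core of the AHR element, on either strand. It occurs in 35.2% of all genes there. Of 24 tested NRF2 targets with a promoter in the table, 6 held the core antioxidant response element TGACNNNGC on either strand, which occurs in 14.0% of all genes there and 12.4% of all promoters. Of 7 called members with a promoter there, 2 held it, Gsta3 and Srxn1. Gsta3 is shown, and capitals mark the match.
Gsta3, chr1:21240335-21240584, plus strand: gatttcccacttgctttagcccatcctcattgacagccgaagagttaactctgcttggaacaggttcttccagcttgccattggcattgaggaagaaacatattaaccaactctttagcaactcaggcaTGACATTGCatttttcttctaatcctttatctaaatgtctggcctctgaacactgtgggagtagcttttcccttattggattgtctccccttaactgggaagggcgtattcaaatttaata

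Chemokine genes rose more often than they fell, and acute-phase genes were among the largest single changes. Of 29 tested chemokines 9 rose (31.0%, against 16.7% of all genes) and 1 fell (median 0.25), and 15 rose without air replicate 1. Ccl11, the eosinophil chemokine eotaxin, was at 7.92, 7.89, 6.38, 7.05 and 7.95 in smoke, against 5.54, 5.90 and 5.96 in air. Smoke replicate 3 was the nearest to air, and the difference was 1.64 ± 0.29 (adjusted p = 0.000619). Cxcl14 rose by 1.50, the mucosal chemokine gene Cxcl17 by 1.41, Ccl6, a macrophage chemokine, by 1.33, the neutrophil attractant Cxcl1 by 1.00 and platelet factor Pf4 by 0.89. Orm1, an acute-phase plasma protein, was at 8.30, 7.50, 7.91, 8.35 and 6.89 in smoke, against 5.01, 4.53 and 4.62 in air. It was not detected on any air array and was at least 7.28-fold higher in smoke, taking for air the higher of the probe's own level and the lowest detected level on each array. Serpina3n, a secreted inhibitor of serine proteases, was at 11.78, 11.60, 10.90, 11.20 and 11.59 in smoke, against 8.88, 8.42 and 8.41 in air, and rose 7.18-fold (adjusted p = 3.37e-07). Saa3, another acute-phase gene, was at 9.56, 8.08, 9.48, 8.65 and 7.70 in smoke. It was not called beside the air values above (0.96, adjusted p = 0.54), but without air replicate 1 it was called at 3.20 (adjusted p = 0.00057), and without air replicate 2 or 3 it was at -0.18 and -0.14, not called.

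Of 26 cytokine and growth-factor genes 6 rose (23.1%, not far from the 16.7% of all genes) and 1 fell (median 0.23). The growth factor Igf1 was at 10.25, 8.87, 9.52, 9.09 and 9.45 in smoke, against 8.02, 7.29 and 6.64 in air, and rose 4.34-fold (adjusted p = 0.000275). Vegfc, a lymphatic growth factor, rose by 0.84 and Tgfb3 by 0.78. The death ligand Tnfsf10 was called at 0.79 but not without air replicate 3 (0.62, adjusted p = 0.052). Osm was called lower (-0.55) and lost its call under 11 of 19 other settings, among them leaving out smoke replicate 2, 4 or 5 or air replicate 1 or 3 (adjusted p 0.052 to 0.14), although its second probe was called (-0.72). Of 13 complement genes 4 rose (30.8%, against 16.7% of all genes) and 1 fell, and 7 rose without air replicate 1. The inhibitors Serping1 (1.14) and Cd59a (1.07) rose with C2 (0.92), and the receptor gene C5ar1 fell (-1.17). C4b was called at 0.74 and at 1.21 without air replicate 1, but lost the call without any smoke replicate or without air replicate 2 or 3 (adjusted p 0.059 to 0.26, at 0.43 without air replicate 2).

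Neutrophil genes as a group were not higher. Of 21 tested 1 rose and 2 fell (9.5%, against 13.8% of all genes), with a median of -0.37. The count falling was 6 without air replicate 3 and 1 without smoke replicate 1, 2 or 5. Their mean level was 9.17 to 9.54 on smoke arrays, against 9.37 to 10.35 on air arrays, with air replicate 1 the highest. S100a8, among the most abundant neutrophil RNAs, was at 14.32, 14.52, 14.51, 14.69 and 14.28 in smoke, against 14.65, 14.16 and 14.22 in air. The groups overlapped (0.12, adjusted p = 0.73), as did those of S100a9 (-0.21, adjusted p = 0.61). The formyl peptide receptor gene Fpr2 fell by 0.97 without overlap. In the other direction Lcn2, which neutrophils also make, rose by 0.83, a call that depended on single air arrays as given above. The chemokine receptor gene Cxcr1 rose by 4.08, and its cell of origin was not tested. Clec4e was called at -0.83 and lost the call without smoke replicate 1, 2, 4 or 5 or air replicate 1 or 2 (adjusted p 0.052 to 0.32).

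Many T and NK cell genes fell in smoke, in a number that depended on the air arrays. Of 32 tested 0 rose, 13 were not called and 19 fell (59.4%, against 13.8% of all genes), with a median of -0.54. The count fell to 7 without air replicate 2 and to 8 without air replicate 3, and was 9 with array background in the fit. Eomes, a transcription factor of cytotoxic lymphocytes, was at 6.64, 6.45, 6.44, 6.03 and 5.73 in smoke, against 7.15, 7.37 and 7.44 in air, without overlap (-1.06, adjusted p = 0.000545). Klrd1 and Nkg7, genes of NK cells, fell by 0.87 and 0.77, also without overlap. The costimulatory receptors Cd28 (-0.90) and Ctla4 (-0.89) were called too. Cd28 lost its call without air replicate 2 or 3 (-0.76 in both, adjusted p = 0.054 and 0.055) and Ctla4 without air replicate 3 (-0.57, adjusted p = 0.073). Prf1, perforin, showed the largest difference of the list, at 8.94, 8.88, 8.33, 9.04 and 8.61 in smoke, against 10.23, 11.78 and 11.98 in air. Its second probe differed by -0.53 and was not called (adjusted p = 0.080), so the size for this gene is uncertain. Of 17 B and plasma cell genes 0 rose, 16 were not called and 1 fell, Spib (-0.64), which lost its call without smoke replicate 4 or 5 or air replicate 3 (adjusted p 0.052 to 0.14). The number that fell was 11 without air replicate 1, 4 without smoke replicate 1 and 0 without smoke replicate 4 or 5 or air replicate 3.

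Of 22 dendritic cell and MHC class II genes 1 rose and 5 fell (median -0.19). The share falling was 22.7%, against 13.8% of all genes, and 3 members rose without air replicate 3. Siglech, a marker of plasmacytoid dendritic cells, the main producers of type I interferon, was at 8.06, 7.38, 7.24, 8.13 and 7.26 in smoke, against 8.89, 9.17 and 9.11 in air. The groups did not overlap, and it fell by 1.44 (2.72-fold, adjusted p = 0.000219) and on its second probe by 0.82. The MHC class II transactivator Ciita fell by 0.85, or by 0.52 without air replicate 1 (adjusted p = 0.039), and the class II gene H2-Aa by 0.44.

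Interferon-stimulated genes were lower on average, and their size depended on air replicate 1. Of 28 tested 0 rose and 9 fell (32.1%, against 13.8% of all genes), with a median of -0.61. The count was 5 without air replicate 1 and 16 without air replicate 3. The mean level of the list was 8.31 to 8.80 on smoke arrays, against 10.25, 8.78 and 8.63 on air replicates 1, 2 and 3. Air replicates 2 and 3 thus lay within the smoke range. The antiviral gene Rsad2 was at 9.19, 9.43, 9.57, 8.77 and 8.91 in smoke, against 11.92, 10.55 and 9.61 in air. Air replicate 3 lay next to the smoke arrays, and the difference of -1.52 (adjusted p = 0.0102) was -0.91 without air replicate 1 (adjusted p = 0.068). Oas2, a sensor of double-stranded RNA, was at 7.37, 7.13, 7.50, 7.25 and 7.07 in smoke, against 10.05, 8.33 and 8.22 in air. It stayed lower without air replicate 1, by 1.01 against 1.60 with it (adjusted p = 0.00040). Stat2, a transcription factor of the interferon response, fell by 0.86, Oasl1 by 1.08 and Ifit2 by 0.98. Without air replicate 1 they fell by 0.55, 0.68 and 0.43 (adjusted p = 0.014, 0.040 and 0.021), and the second Ifit2 probe was not called (-0.62, adjusted p = 0.076). The call of Mx1 (-1.07) was lost without air replicate 1 (-0.58, adjusted p = 0.057). Irgm1, an interferon-induced GTPase, was at 12.72, 12.72, 12.92, 12.65 and 12.94 in smoke, against 13.31, 13.36 and 13.45 in air, but its other 2 probes were not called (-0.57 and -0.73, adjusted p = 0.12 and 0.11).

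The interferon-stimulated response element core (TTTC, any 2 bases, then TTTC), on either strand, was found in 13 of 23 tested members with a promoter in the table, where 3.99% of all genes and 3.44% of all promoters hold it. Of 5 called members with a promoter there, 3 held it, Rsad2, Stat2 and Irgm1. Their 250 bases before the gene start are given from the same source, with matches in capitals; in Irgm1 the 2 matches overlap.
Rsad2, chr12:26456453-26456702, minus strand: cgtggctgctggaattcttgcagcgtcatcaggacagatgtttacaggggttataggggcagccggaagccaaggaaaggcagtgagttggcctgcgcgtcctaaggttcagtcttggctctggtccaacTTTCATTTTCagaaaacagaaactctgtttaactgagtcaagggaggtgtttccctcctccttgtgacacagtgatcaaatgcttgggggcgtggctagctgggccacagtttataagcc
Stat2, chr10:128270248-128270497, plus strand: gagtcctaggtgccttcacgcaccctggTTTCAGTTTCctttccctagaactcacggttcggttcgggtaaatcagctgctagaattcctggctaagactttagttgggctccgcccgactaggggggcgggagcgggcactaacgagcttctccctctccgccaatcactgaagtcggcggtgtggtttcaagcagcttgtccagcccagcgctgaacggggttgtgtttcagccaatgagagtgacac
Irgm1, chr11:48871421-48871670, minus strand: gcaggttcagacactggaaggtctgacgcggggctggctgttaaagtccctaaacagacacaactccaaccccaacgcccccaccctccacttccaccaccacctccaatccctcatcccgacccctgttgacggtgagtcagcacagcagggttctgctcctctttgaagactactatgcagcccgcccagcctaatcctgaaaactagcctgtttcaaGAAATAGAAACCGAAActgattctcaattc

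**Figure D4:**
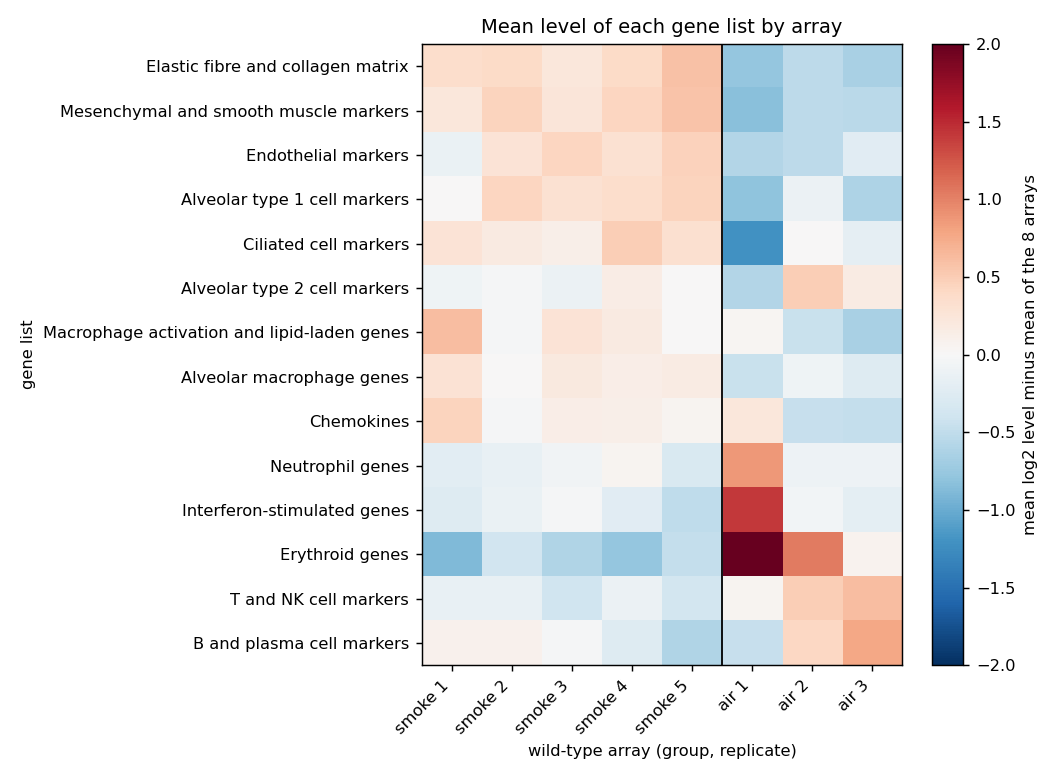
Mean log2 level of each gene list on each wild-type array, minus the mean of the 8 arrays (colour), smoke arrays left and air arrays right. Air replicate 1 carries the highest interferon-stimulated (10.25), neutrophil (10.35) and erythroid (11.77) levels and the lowest ciliated level (6.97).

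Red cell genes fell. Of 6 tested erythroid genes 0 rose and 4 fell (66.7%, against 13.8% of all genes), with a median of -1.91. The count falling was 4 when any 1 array was left out. Slc4a1, the anion exchanger of red cells, was at 6.68, 7.11, 6.77, 6.54 and 7.07 in smoke, against 12.09, 9.48 and 7.84 in air. The air arrays spread widely while the smoke arrays were close together, and the difference of -2.97 was -1.82 without air replicate 1 and -3.95 without air replicate 3 (adjusted p = 0.025 and 0.00058). Alas2, the first enzyme of haem synthesis in red cells, was at 8.90, 9.40, 9.10, 9.11 and 9.36 in smoke, against 12.35, 11.63 and 10.19 in air, and fell by 2.22, or by 2.82 without air replicate 3. The beta-globin probes Hbb-b2 (-2.56) and Hbb-bt (-1.61) fell as well, and may read each other's transcripts. Hbb-b2 was at -1.97 without air replicate 1 and at -3.24 without air replicate 3. How much blood remained in each lung is not given in the sources used here, and its part in the result was not tested. Platelet genes did not fall. Of 10 tested 3 rose (30.0%, against 16.7% of all genes), led by Nrgn (1.32). The count rising was 7 without air replicate 1 and 5 without smoke replicate 5.

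The remaining large falls were mostly in genes outside the lists. Zxda, a zinc finger gene of the X chromosome, was at 8.22, 7.63, 7.35, 8.11 and 8.12 in smoke, against 10.12, 11.28 and 11.68 in air (difference -3.14, adjusted p = 1.15e-05). Erich5 was at 9.68, 8.96, 8.67, 9.45 and 9.58 in smoke, against 11.14, 12.70 and 13.11 in air (-3.05). The probes of Zxda and Erich5 may also read related or repeated sequences, which could not be checked, so these falls may not belong to the named genes alone. Both had their lowest smoke value on replicate 3 and their lowest air value on replicate 1. The same 2 arrays were lowest for Rhbdl2, a rhomboid protease (-2.88), Ccdc144b (-2.60), Hsd3b2, a steroid dehydrogenase whose probes may read its paralogs (-2.25), and Prf1. Itgad, the integrin chain CD11d (-2.69 and -2.64 on 2 probes but -0.63 on the third), Gm7609 (-2.33) and Pisd-ps2 also had their lowest air value on replicate 1. Pisd-ps2 was detected on 0 of 5 smoke arrays, at least 4.94-fold below air.

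Xist, the RNA that silences an X chromosome, was at 7.30, 7.86, 8.21, 8.87 and 8.56 in smoke, against 9.37, 10.39 and 10.14 in air. It fell by 1.81 on this probe and by 1.40 on a second (adjusted p = 0.000839 and 0.000216), with no overlap, and was singled out after its values were seen.

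Among rises outside these groups, Spag11b, of the beta-defensin family, was at 11.41, 10.34, 11.22, 10.88 and 11.04 in smoke, against 6.92, 9.20 and 9.07 in air. Its difference of 2.58 was 1.83 without air replicate 1 (adjusted p = 0.0015), and its second probe was also called. Zranb3, a DNA translocase of stalled replication forks, rose by 2.44 and Syngr1, a vesicle membrane protein, by 2.31, both highest on smoke replicate 1.

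Clock genes were called about as often as genes at large, in both directions. Of 17 tested 3 rose and 3 fell (median 0.05), and 1 fell without air replicate 2. Of 15 with a promoter in the RefSeq table, 4 held the E-box CACGTG, against 8.09% of all genes there. The D-box TTATGTAA, another clock element, was held by 1 of 15, against 1.11%. Dbp, a transcription factor driven directly by the clock, was at 10.80, 11.18, 10.96, 11.01 and 11.57 in smoke, against 8.60, 9.09 and 9.13 in air. The groups did not overlap, and the rise was 4.49-fold (2.17 ± 0.22, adjusted p = 7.92e-06). Nr1d1, the repressor REV-ERB alpha, rose by 1.34 on the brighter of 2 called probes. Tef, a relative of Dbp, rose by 0.71, a call lost without air replicate 1 (0.53, adjusted p = 0.058). Arntl, which encodes the core activator BMAL1, was at 7.53 to 8.14 in smoke, against 8.11 to 8.84 in air, and was called at -0.62 although the groups just overlapped. Its call was lost without air replicate 2 (-0.46, adjusted p = 0.056). Nfil3, a repressor of Dbp targets, was called at -0.60, but not without air replicate 1 (-0.30, adjusted p = 0.12). Per1 was called at -0.67, but not without smoke replicate 1, 2, 3 or 4 or air replicate 2 or 3 (adjusted p 0.062 to 0.22). The hour at which lungs were taken is not given in the sources used here, and its part in these differences was not tested.

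Cell cycle genes were called in a share near that of all genes. Of 33 cell cycle genes 4 rose and 5 fell (median -0.14), and 3 fell without smoke replicate 4 or 5 or air replicate 2. Cdkn2b was at 8.85, 9.32, 9.18, 9.12 and 9.04 in smoke, against 7.54, 8.19 and 7.89 in air, and rose 2.35-fold (adjusted p = 1.74e-05). Its neighbour Cdkn2a, which encodes p16 and p19, was at 6.03, 5.50, 5.54, 5.73 and 5.70 in smoke, against 4.64, 4.58 and 4.51 in air. It was detected on all 5 smoke arrays and on 0 of 3 air arrays, at least 1.71-fold higher in smoke. Cdkn1c rose by 0.86, whereas Cdkn1b fell by 0.83. Top2a, a topoisomerase of dividing cells, was at 7.08, 7.03, 6.85, 7.22 and 6.92 in smoke, against 8.38, 8.19 and 7.70 in air, and fell by 1.07 (adjusted p = 5.79e-05), with Nusap1, a spindle protein, at -0.76.

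The wild-type response was set beside that of the arrays labelled Mmp28-/-, which had their own air controls. Of the 3148 called genes, 3044 had the same sign there. By limma, no probe passed the test of the difference between genotypes (interaction term, 0 of 15180 called, 0%, smallest adjusted p = 0.36). An unadjusted p under 0.05 was met by 1138 probes. With 15180 tested many are met by chance alone, so this is not a count of probes that depend on genotype. Of the 35 matrix genes, 30 rose in wild type and 15 in the arrays labelled Mmp28-/-, where 11.9% of all genes rose and 10.3% fell, with medians of 1.03 and 0.39, and 34 had the larger difference in wild type. The mean level of the list was 8.82 to 9.06 in smoke and 8.41 to 8.73 in air on the arrays labelled Mmp28-/-, against 8.71 to 9.06 in smoke and 7.71 to 7.95 in air in wild type. The genotypes thus overlapped in smoke and not in air. Col1a1 differed by 1.89 in wild type and 0.76 in those arrays, and Eln by 0.83 and -0.29, with an interaction adjusted p of 0.36 for both. Endothelial markers had medians of 0.75 and 0.36, with 22 and 6 rising. Type 1 cell markers had medians of 0.81 and 0.08, with 9 and 1 rising. Ciliated markers ran the other way, with medians of 0.85 and 1.47 and 12 and 13 rising, 1 of 17 being larger in wild type. None of these differences between genotypes passed its test gene by gene. Members of a list were read on the same few air arrays, so these counts are not independent. The matching shares over all genes are not given here, and no genotype effect is drawn from the counts.

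Single genes stood as follows in the 2 genotypes. Ear6 differed by 4.46 in wild type and 4.36 in the arrays labelled Mmp28-/-, Cxcr1 by 4.08 and 3.30, and Orm1 by 3.07 and 3.10. Mmp12 differed by 2.54 and 1.06, Gpnmb by 2.47 and 1.62, and Ctsk by 2.10 and 1.36, with interaction adjusted p of 0.66, 0.61 and 0.67. Retnla differed by 1.02 in wild type and -0.84 in those arrays, where its call in wild type rested on air replicate 1 (interaction adjusted p = 0.49). A p that misses the threshold does not show that the genotypes responded alike.

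**Figure D5:**
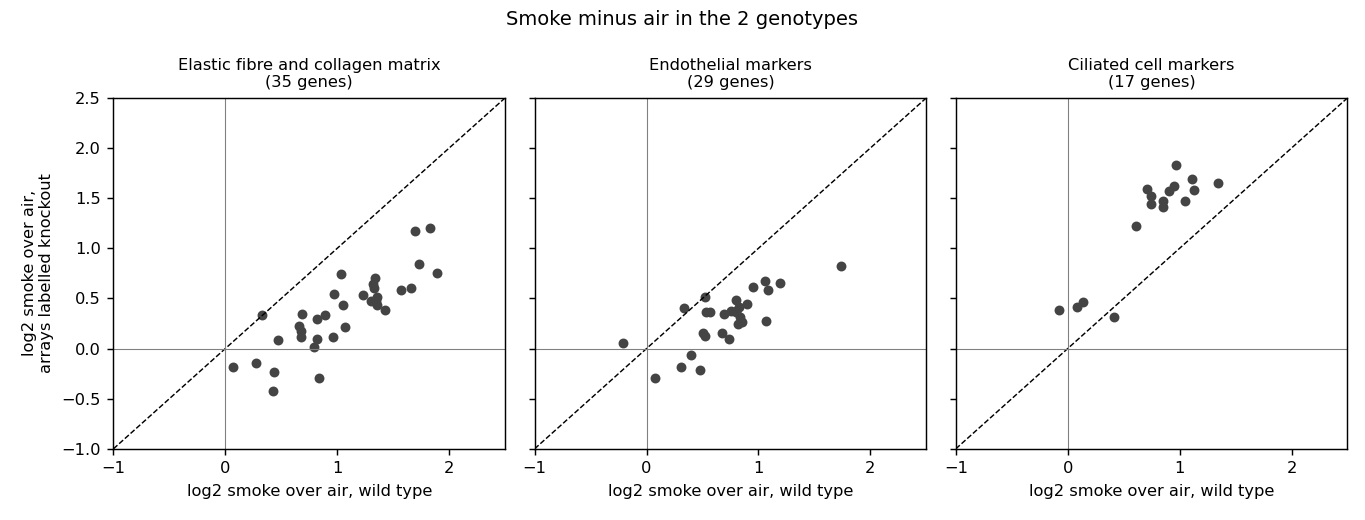
Smoke minus air difference (log2) in wild type (x axis) and in the arrays labelled Mmp28-/- (y axis) for matrix, endothelial and ciliated genes; each point is 1 gene and the dashed line marks equal values. Of 35 matrix genes 34 lie below the line, and of 17 ciliated genes 1 does.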

How the data were processed

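RNA from whole lung was hybridised to Illumina MouseRef-8 v2 arrays, 16 in all, in 1 colour per the labels. The authors deposited, for 25697 probes, an intensity without normalization and a detection p-value per array, and also a processed intensity table that the values show to be quantile normalized and linear. Per the submitters' processing notes the software included lumi. Chip and batch are unknown.

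Columns were matched to samples by their headers. Intensities were background corrected and quantile normalized with neqc in limma 3.58.1 (R 4.3.3; background inferred from detection p-values, offset 16). Probes with detection p under 0.05 on at least 3 of 8 wild-type arrays were kept. A model of 4 group means was fitted to all 16 arrays (lmFit, eBayes), and smoke minus air in wild type and its difference between genotypes were tested over all 15180 probes, with Benjamini-Hochberg adjustment. Smoke and air arrays were compared in mean background and in detected probes by exact permutation, 2-sided. Precision is limited by how many arrays there were. The fit was tested on simulated data with known differences. It recovered 22 of 67 differences of 0.5, 59 of 67 of 1 and 66 of 66 of 2. Differences near 0.5 were thus often missed there, so a gene not called may still differ.

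Symbols came from the platform annotation (23978 probes with 1 symbol, 1719 unnamed here), updated to RefSeq GRCm38.p6. Each gene is represented by its brightest tested probe. Named genes were the 12 largest rises and falls among called genes whose groups did not overlap, up to 6 called members of a list by size, members described for missing the threshold, and Mmp28. Members and the 35 gene lists were chosen with earlier results of these data known, and lists are described by counts and medians only. For a probe undetected in a whole group, a fold is given as a bound. Alternatives were another background correction, offset, scaling, filter, array set, array weights, moderation, the array background or replicate number in the fit, the authors' values, and leaving out each array. Sex as a covariate was not run.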

Additional observations from a re-analysis of the deposited data

Results flagged for a closer look

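Among the 5 smoke arrays, 7 values of named genes stood apart from the other 4 arrays of their group by Dixon's criterion. With 151 such checks, about 7.55 are met by chance. On smoke replicate 1 the level was low for Mcoln1 (7.48, against 7.69 to 7.74 on the others), Wnt2 (8.07, against 8.42 to 8.55), Acvrl1 (9.13, against 9.71 to 9.86) and Cyp4b1 (10.77, against 11.18 to 11.31), and high for Cyp1b1 (6.61, against 6.07 to 6.20). On smoke replicate 5 it was high for Nr1d1 (9.22, against 8.63 to 8.76) and low for Oasl1 (6.23, against 7.05 to 7.26).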

How the results depend on the processing

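The 4463 called probes became 2508 with the mean background of each array as a covariate (1402 rising and 1106 falling), and array background differed between smoke and air. The other settings run on all arrays gave counts within 1.5 times, among them 4282 with the authors' own processed values, 4104 with median scaling, 3610 with the wild-type arrays alone and 5322 with array weights. Leaving out 1 array at a time gave 3684 to 4287 called (2004 to 2277 rising, 1680 to 2164 falling). The difference between genotypes had 0 calls throughout. No setting moved the median of all probes by over 0.1. None of the 149 named genes was called in the opposite direction under any of the 19 settings. The settings in which the most named genes lost their calls were array background as a covariate (27 genes) and leaving out air replicate 1 (18 genes).

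Replicate numbers did not pair the arrays: deviations of the same-numbered arrays correlated at 0.13, -0.10 and -0.10. With the replicate block, 3501 probes were called, and 12 named genes lost their calls.

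Depth of signal limits dim genes such as Cdkn2a, which lay near background in air.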

Other observations

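Lists not described above gave the following counts, beside 16.7% of all genes rising and 13.8% falling. Of 29 genes of cholesterol and fatty acid synthesis 7 rose and 1 fell, and 3 fell without air replicate 1. Of 15 glucocorticoid-responsive genes 3 rose and 1 fell. Of 24 immediate early genes, which respond to handling as well as to signals, 3 rose and 4 fell, and 2 fell without air replicate 3. Of 23 heat shock and unfolded protein response genes 4 rose and 1 fell. Among tissues that can be carried over in dissection, 1 of 5 tested skeletal muscle markers rose and 3 fell, 1 of 2 cardiac markers rose, 6 fat markers differed by -0.54 to 0.51 with 0 called by limma, 1 of 8 thymus and lymph node markers rose and 1 fell, and 1 of 3 oesophagus and trachea markers rose. The part of such tissue in the results above was not tested.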
